A study of Mus musculus with 6 samples.

Results

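*Foxp3* and 8 further genes that mark the identity of regulatory T cells (Tregs) were followed in Tregs taken from mouse melanomas. Control Tregs were compared with Tregs in which the gene for the glucocorticoid receptor (GR) was targeted for deletion. The genes were picked by name, and 10 names were listed: *Foxp3*, *Ikzf2*, *Ikzf4*, *Lrrc32*, *Nrp1*, *Gpr83*, *Itgae*, *Capg*, *Folr4* and *Izumo1r*. *Folr4* and *Izumo1r* are 2 names of 1 gene, listed as *Izumo1r*, so the set held 9 of the 12153 genes in the table. All 9 had a value in each of the 6 libraries, and none had been lost to the authors' filter on low expression.

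The study asked how GR in Tregs shapes their state in tumors. B16.F10 melanoma cells were grown in mice for 15 days, tumors were digested with Liberase TL and DNase I, and Tregs were sorted for RNA-Seq. Control Tregs made up 3 libraries, from mice for which the labels name only the floxed *Nr3c1* allele (Nr3c1-flox). *Nr3c1*-Foxp3Cre Tregs made up 3 libraries, from mice with the same floxed allele plus Foxp3-YFP/Cre, in which Cre made under the control of *Foxp3* removes the *Nr3c1* gene, from which GR is made. The floxed allele was shared by both groups, and the Foxp3-YFP/Cre allele was named for the *Nr3c1*-Foxp3Cre group only. The study combined female and male mice. The sample labels describe a sort on CD45, CD4 and CD25, whereas the study's methods describe CD4+ Foxp3-YFP+ cells. *Foxp3* was therefore itself close to the gate, and an effect of the YFP/Cre allele or of the gate on its level cannot be told apart from the loss of *Nr3c1*. A sort on Foxp3-YFP needs a YFP allele in control mice too, which the labels do not name. Whether control mice carried it is therefore unclear. No source said that the libraries of a group came from separate animals, so p-values measure the spread between these libraries.

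Foxp3 is the transcription factor that sets up and maintains the Treg lineage, and mice that lack it develop fatal autoimmunity. It acts with relatives of Ikaros, above all Helios and Eos, and a set of surface proteins is higher in Tregs than in conventional T cells, among them GARP, which holds latent TGF-β on the cell surface, and neuropilin-1. Tregs in tumors carry much of this program and restrain antitumor T cells.

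Values are log2 CPM, the log2 of the share of RNA counts per gene scaled to a common library total, after quantile normalization. *Nr3c1* was at 7.15, 7.59 and 6.88 log2 CPM in control libraries and at 6.14, 5.45 and 5.90 in *Nr3c1*-Foxp3Cre libraries, a log2 fold change of -1.38 (SE, standard error, 0.21, limma adjusted p = 0.120). Every *Nr3c1*-Foxp3Cre library lay below every control library, and the label of each group therefore agreed in direction with the gene it names. Geometric means were 148 CPM in control and 56.8 CPM in *Nr3c1*-Foxp3Cre libraries, so *Nr3c1* RNA was lower but not absent. The source of the remaining RNA was not tested, and these libraries do not measure GR protein. All 10 T cell markers examined had a value, with a mean of 9.10 to 9.43 log2 CPM in control libraries and 9.22 to 9.37 in *Nr3c1*-Foxp3Cre libraries. Of the markers of other cells, 1 of 6 for CD8 and NK cells and 1 of 5 for B cells had a row in the table, whereas 13 of 14 myeloid markers and 8 of 8 melanoma markers had one. The summed CPM of the T cell markers ranged from 6512 to 7900 in control libraries and from 7115 to 7793 in *Nr3c1*-Foxp3Cre libraries. The summed CPM of the melanoma markers ranged from 4395 to 11725 in control libraries and from 4925 to 11986 in *Nr3c1*-Foxp3Cre libraries. In both groups the summed CPM of the melanoma markers thus reached above that of the T cell markers. That of the myeloid markers ranged from 441 to 631 and from 331 to 599. The fibroblast markers summed to 187 to 460 CPM in control libraries and 76.7 to 167 in *Nr3c1*-Foxp3Cre libraries, with no overlap. In sorted bulk RNA, fewer cells of a type and less RNA per cell cannot be told apart.

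None of the 9 genes passed the test between the groups. Over all genes 0.0576% passed at an adjusted p under 0.05 by limma with Benjamini-Hochberg adjustment, and each of the 9 had an adjusted p of 1.0. At an unadjusted limma p under 0.05, 1 of the 9 passed, *Ikzf4*, against 3.26% of all genes, and it was higher, as were 1.61%. In 8 of the 9 the mean was higher in *Nr3c1*-Foxp3Cre Tregs, against 49.5% of all genes, and the median log2 fold change was 0.18 against -0.0014 for all genes. Without control replicate 1, 5 of the 9 were higher and the median was 0.05, and the median was 0.09 without *Nr3c1*-Foxp3Cre replicate 1, 0.31 without control replicate 2 and 0.28 without *Nr3c1*-Foxp3Cre replicate 2. For 0 of the 9 were the libraries of the groups free of overlap, against 7.41% of all genes. The 95% interval of the difference lay within a 2-fold change in either direction for 8 of the 9, against 80.6% of all genes, and *Gpr83* was the exception.

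**Figure D1:**
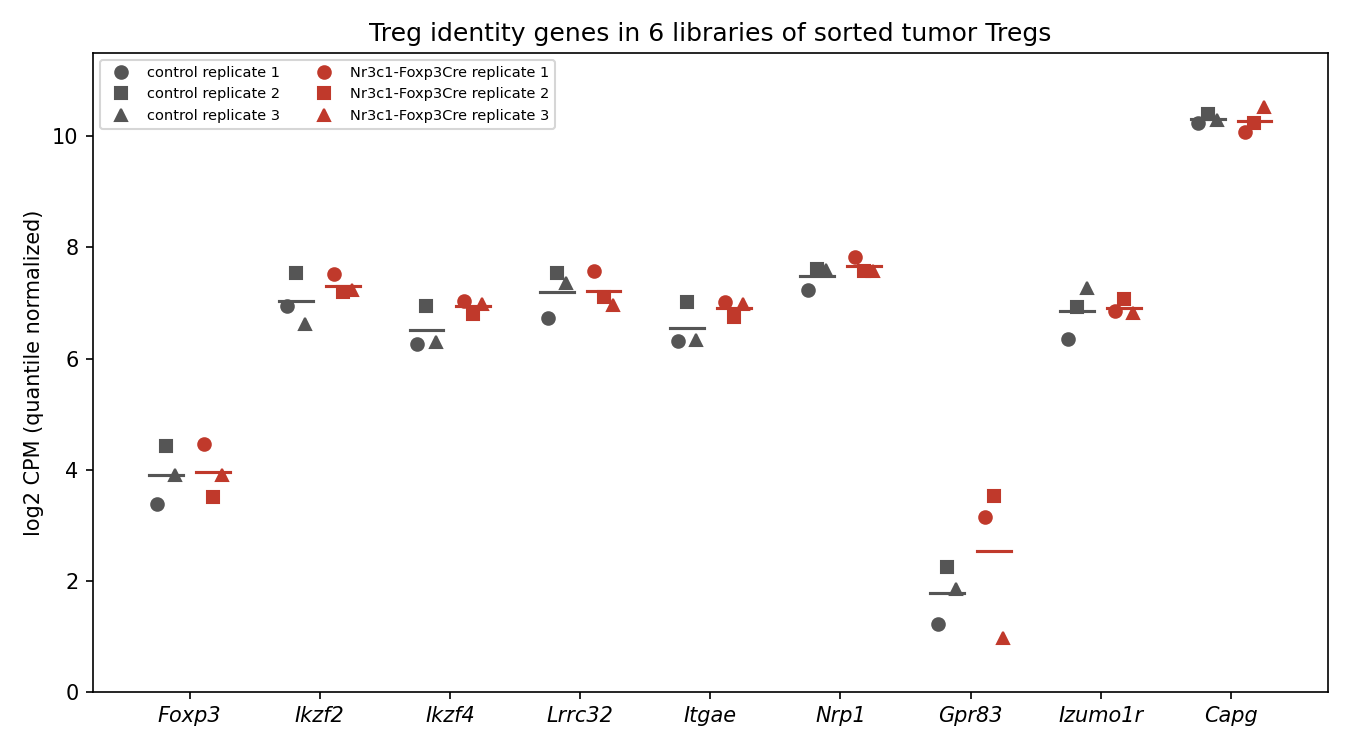
Level of each of the 9 genes (x axis) in log2 CPM after quantile normalization (y axis) in the 3 control libraries (grey) and the 3 *Nr3c1*-Foxp3Cre libraries (red), with symbols for replicates and bars for group means. The groups overlap for all 9 genes, *Capg* sits highest, and *Gpr83* has the widest spread, from 0.97 to 3.52 in the *Nr3c1*-Foxp3Cre group.

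*Foxp3* (ENSMUSG00000039521.13) lies on chromosome X of mm10, from 7573644 to 7595245 on the plus strand. Its control libraries read 3.39, 4.42 and 3.91 log2 CPM, and its *Nr3c1*-Foxp3Cre libraries read 4.47, 3.50 and 3.90. Both groups held a high, a middle and a low library, and their ranges covered almost the same span. The means were 3.91 ± 0.52 (SD, n = 3) and 3.96 ± 0.49 (SD, n = 3). The log2 fold change was 0.05 (SE 0.32, 95% interval -0.66 to 0.76, limma p = 0.870, exact permutation p = 0.8), which is a fold of 1.04 with an interval from 0.634 to 1.70. The difference was far below the spread within either group, and true changes inside these bounds were not excluded. The smallest change that could be detected was not computed. These bounds are for 1 gene without adjustment, and after adjustment over all genes changes beyond them can go undetected. Even *Nr3c1*, at -1.38 (SE 0.21), did not pass (limma adjusted p = 0.120). The sign of the *Foxp3* difference rested on single libraries: it was -0.21 without control replicate 1 and -0.20 without *Nr3c1*-Foxp3Cre replicate 1. Its geometric means were 15.0 CPM in control and 15.6 CPM in *Nr3c1*-Foxp3Cre Tregs, at the 34.6th percentile of all genes without regard to length.

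*Foxp3* transcription begins at more than 1 place, and the stretches before its RefSeq starts are shown because this is the promoter that also drives Cre in the *Nr3c1*-Foxp3Cre mice. RefSeq places starts at 7579676 and 7580483 of chromosome X, 807 bases apart (GRCm38.p6, the assembly of mm10). The first line below holds 141 bases before the first start that are in no annotated *Foxp3* exon, chrX:7579426-7579566, inside the annotated gene and inside an exon of *Flicr*, the noncoding RNA described below. The second holds 30 bases around the TATA motif, chrX:7579632-7579661, with TATAAA in capitals starting 32 bases before the first start. The third holds the 250 bases before the second start, chrX:7580233-7580482, with a match to the Stat motif TTCNNNGAA in capitals. All are on the plus strand.
Foxp3 upstream of the first start: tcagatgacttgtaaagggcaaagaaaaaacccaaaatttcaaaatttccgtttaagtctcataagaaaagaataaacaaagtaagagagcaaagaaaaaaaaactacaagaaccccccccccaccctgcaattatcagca
Foxp3 TATA motif: ttttcttctcggTATAAAagcaaagttgtt
Foxp3 before the second start: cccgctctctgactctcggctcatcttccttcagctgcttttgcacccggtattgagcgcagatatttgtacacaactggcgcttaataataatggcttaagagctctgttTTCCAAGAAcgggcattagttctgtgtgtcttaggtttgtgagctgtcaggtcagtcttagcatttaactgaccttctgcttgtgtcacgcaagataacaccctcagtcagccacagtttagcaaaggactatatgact

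RefSeq promoter windows were at hand for 5 of the 9 genes, 6 windows in all, but not for *Ikzf2*, *Ikzf4*, *Itgae* and *Lrrc32*. Each was searched on both strands over the 250 bases before the start. The palindromic GR element, AGAACA and TGTTCT with 3 free bases between them, was in 0 of the 6 windows and in 0.00913% of 32851 windows of all genes. Its left arm AGAACA, which every such element contains, was in 0 of the 6 and in 16.1% of all. The Stat motif TTCNNNGAA was in 1 of the 6, at the second *Foxp3* start, and in 7.02% of all windows. TATAAA was in 1 of the 6, at the first *Foxp3* start, and in 12.4% of all. The Runx motif TGTGGT was in the *Izumo1r* window alone, against 14% of all windows, and the forkhead motif TGTTTAC was in 0 of the 6 against 3.17%. GGAAA, the core bound by NFAT, was in 4 of the 6 windows and in 55.6% of all. These counts describe letters in short windows and say nothing on where a factor binds.

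Part of the *Foxp3* signal could not be assigned to *Foxp3* with certainty. The long noncoding RNA *Flicr* runs on the same strand, and its exon from 7577908 to 7581027 spans both RefSeq starts of *Foxp3*. It shares 853 of the 4577 exonic bases of *Foxp3*, or 18.6%. *Flicr* was at 0.64, 1.71 and -0.05 log2 CPM in control and at 0.95, 1.44 and 1.56 in *Nr3c1*-Foxp3Cre libraries, a log2 fold change of 0.55 (SE 0.49, limma adjusted p = 1.0). The groups overlapped. The other genes that overlap *Foxp3* and have a row run on the opposite strand, and the cDNA kit was not stated to keep strand. *Ppp1r3f*, at its upstream end, was at 3.84 ± 0.40 (SD, n = 3) in control and 3.86 ± 0.45 (SD, n = 3) in *Nr3c1*-Foxp3Cre Tregs. *Ccdc22*, at its downstream end, was at 5.27 ± 0.18 (SD, n = 3) and 5.21 ± 0.06 (SD, n = 3). The nearest genes with a row that do not overlap it, *2010204K13Rik* and *Syp*, had log2 fold changes of -0.04 (SE 0.30) and -0.30 (SE 0.32).

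**Figure D2:**
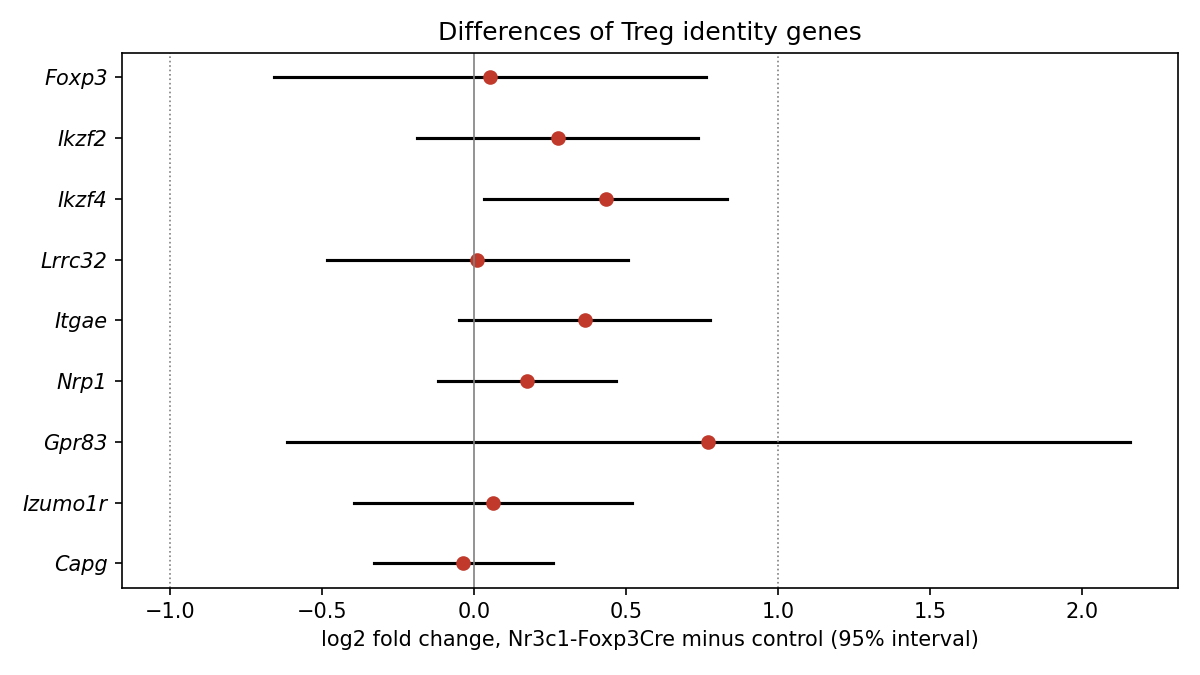
Log2 fold change of each gene, *Nr3c1*-Foxp3Cre minus control (x axis), with its 95% interval from limma; dotted lines mark a 2-fold change either way. The intervals of all genes except *Ikzf4* contain 0, and that of *Gpr83* runs from -0.62 to 2.16.

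The partners of Foxp3 from the Ikaros family came next. *Ikzf4*, which encodes Eos, a corepressor that Foxp3 recruits to silence genes (ENSMUSG00000002578.17, chromosome 10, 128630843 to 128645991, minus strand), was at 6.27, 6.95 and 6.30 log2 CPM in control libraries. In *Nr3c1*-Foxp3Cre libraries it was at 7.04, 6.81 and 6.97. All *Nr3c1*-Foxp3Cre libraries were above control replicates 1 and 3, and control replicate 2 lay among them. The log2 fold change was 0.43 (SE 0.18, 95% interval 0.03 to 0.83, limma p = 0.0363, adjusted p = 1.0, exact two-sided permutation p = 0.2). This permutation p was the lowest among the 9 genes, and 3 libraries against 3 allow 0.1 at best. The unadjusted limma p depended on the libraries used. It was 0.115 without control replicate 1, 0.134 without control replicate 3, 0.107 without *Nr3c1*-Foxp3Cre replicate 1 and 0.0880 without *Nr3c1*-Foxp3Cre replicate 3. The unadjusted limma p stayed under 0.05 when control replicate 2 or *Nr3c1*-Foxp3Cre replicate 2 was left out. Without control replicate 2 the log2 fold change was 0.66 (limma adjusted p = 0.166), and without *Nr3c1*-Foxp3Cre replicate 2 it was 0.50 (limma adjusted p = 1.0).

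*Ikzf2*, which encodes Helios, a factor that stabilises the Treg state (ENSMUSG00000025997.13, chromosome 1, 69531214 to 69687245, minus strand), was at 6.95, 7.53 and 6.63 log2 CPM in control libraries. In *Nr3c1*-Foxp3Cre libraries it was at 7.52, 7.19 and 7.23. The control libraries took both the highest and the lowest of the 6 values. Its log2 fold change was 0.28 (SE 0.21, 95% interval -0.19 to 0.74, limma p = 0.212, exact permutation p = 0.5). It was 0.07 without control replicate 3 and 0.52 without control replicate 2. The remaining Ikaros relatives differed by no more than the spread within groups: *Ikzf1*, which encodes Ikaros, had a log2 fold change of -0.11 (SE 0.14), *Ikzf3*, which encodes Aiolos, of -0.05 (SE 0.16) and *Ikzf5* of 0.03 (SE 0.19). Of the 5 genes of the family, 3 were higher and 2 lower, with a median of 0.03, and 0 passed at an adjusted p under 0.05 (1, *Ikzf4*, at an unadjusted limma p under 0.05). Among all genes 49.5% were higher and 3.26% passed at that unadjusted p.

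The genes for surface proteins of TGF-β handling and tissue retention were read together. *Lrrc32* encodes GARP, the docking protein for latent TGF-β (ENSMUSG00000090958.2, chromosome 7, 98489283 to 98502181, plus strand). It was at 6.72, 7.53 and 7.36 log2 CPM in control and at 7.58, 7.10 and 6.96 in *Nr3c1*-Foxp3Cre libraries. Its group means were almost equal, at 7.20 ± 0.43 (SD, n = 3) and 7.21 ± 0.32 (SD, n = 3), and the log2 fold change was 0.01 (SE 0.22, 95% interval -0.49 to 0.51, limma p = 0.965, exact permutation p = 1). The sign turned to -0.23 without control replicate 1 and to -0.17 without *Nr3c1*-Foxp3Cre replicate 1. Its cargo *Tgfb1* had a log2 fold change of -0.09 (SE 0.18), and *Nrros*, a relative of GARP that also holds latent TGF-β, of 0.05 (SE 0.09).

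*Itgae* encodes CD103, the α chain of the integrin that binds E-cadherin (ENSMUSG00000005947.11, chromosome 11, 73090583 to 73147446, plus strand). It was at 6.32, 7.01 and 6.33 log2 CPM in control and at 7.02, 6.75 and 6.99 in *Nr3c1*-Foxp3Cre libraries. As for *Ikzf4*, control replicates 1 and 3 lay below all *Nr3c1*-Foxp3Cre libraries and control replicate 2 did not. On average *Itgae* was higher, by a log2 fold change of 0.36 (SE 0.18, 95% interval -0.05 to 0.78, limma p = 0.0772, exact permutation p = 0.3), and it was 0.59 without control replicate 2 (limma adjusted p = 0.274). *Itgb7*, its β chain, was at 9.56, 10.01 and 9.92 in control and at 9.97, 9.77 and 9.96 in *Nr3c1*-Foxp3Cre libraries, a log2 fold change of 0.07 (SE 0.13). *Haspin*, an intronless gene that lies inside *Itgae* on the opposite strand, had a log2 fold change of -0.27 (SE 0.25), the opposite sign to *Itgae*.

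The receptor genes differed widely in how well they were measured. *Nrp1* encodes neuropilin-1, a coreceptor for semaphorins and VEGF (ENSMUSG00000025810.9, chromosome 8, 128358604 to 128503363, plus strand). It was at 7.23, 7.62 and 7.60 log2 CPM in control and at 7.83, 7.58 and 7.57 in *Nr3c1*-Foxp3Cre libraries. Control replicate 1 was the lowest and *Nr3c1*-Foxp3Cre replicate 1 the highest, and the other 4 libraries lay within 0.05 of each other. This gave *Nrp1* a log2 fold change of 0.18 (SE 0.13, 95% interval -0.12 to 0.47, limma p = 0.210, exact permutation p = 0.6). It was 0.05 without control replicate 1 and 0.09 without *Nr3c1*-Foxp3Cre replicate 1. Its ligand *Sema4a* had a log2 fold change of 0.04 (SE 0.18). The related *Nrp2*, at 2.54, 2.40 and 2.43 in control and 2.17, 2.09 and 1.58 in *Nr3c1*-Foxp3Cre libraries, was lower without overlap, but with a log2 fold change of -0.51 (SE 0.29, limma adjusted p = 1.0).

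*Gpr83*, which encodes a G protein-coupled receptor of Tregs (ENSMUSG00000031932.14, chromosome 9, 14860210 to 14870789, plus strand), was the lowest of the 9, also per length of transcript. It was at 1.22, 2.25 and 1.85 log2 CPM in control and at 3.14, 3.52 and 0.97 in *Nr3c1*-Foxp3Cre libraries. *Nr3c1*-Foxp3Cre replicates 1 and 2 were above every control library and replicate 3 was below every one. The log2 fold change was 0.77 (SE 0.62, 95% interval -0.62 to 2.16, limma p = 0.241, exact permutation p = 0.4), a fold of 1.71 with an interval from 0.653 to 4.46. Without *Nr3c1*-Foxp3Cre replicate 3 it was 1.56 (limma adjusted p = 1.0), and without *Nr3c1*-Foxp3Cre replicate 2 it was 0.28. Its geometric means were 3.42 CPM in control and 5.83 CPM in *Nr3c1*-Foxp3Cre Tregs, and the wide interval included both a rise and a fall.

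*Izumo1r* encodes folate receptor 4, a surface protein of Tregs that was long listed as *Folr4* (ENSMUSG00000031933.17, chromosome 9, 14885814 to 14903949, minus strand), and it is the next gene with a row after *Gpr83*, 15.0 kb away. It was at 6.36, 6.93 and 7.27 log2 CPM in control and at 6.85, 7.08 and 6.82 in *Nr3c1*-Foxp3Cre libraries. The control libraries enclosed all *Nr3c1*-Foxp3Cre libraries. Between the group means the log2 fold change was 0.06 (SE 0.20, 95% interval -0.40 to 0.52, limma p = 0.765, exact permutation p = 0.9). It was -0.19 without control replicate 1 and -0.02 without *Nr3c1*-Foxp3Cre replicate 2.

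*Capg*, which encodes an actin-capping protein of the gelsolin family (ENSMUSG00000056737.14, chromosome 6, 72544391 to 72562983, plus strand), was the most abundant of the 9, also per length of transcript. It was at 10.24, 10.40 and 10.30 log2 CPM in control and at 10.07, 10.24 and 10.52 in *Nr3c1*-Foxp3Cre libraries, at the 99.5th percentile of all genes without regard to length. The *Nr3c1*-Foxp3Cre libraries enclosed the control libraries. For *Capg* the log2 fold change was -0.03 (SE 0.13, 95% interval -0.33 to 0.26, limma p = 0.795, exact permutation p = 0.9), a fold of 0.976 with an interval from 0.796 to 1.20, and it was 0.07 without *Nr3c1*-Foxp3Cre replicate 1 and 0.0069 without control replicate 2. Of its relatives, *Gsn* had a log2 fold change of 0.09 (SE 0.11), *Scin* of -0.59 (SE 0.29) and *Svil* of 0.34 (SE 0.16). *Svil* was at 4.69, 5.09 and 4.88 in control and at 5.42, 5.14 and 5.11 in *Nr3c1*-Foxp3Cre libraries, without overlap (limma adjusted p = 1.0).

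Levels of the 9 genes were ordered per kilobase of the longest coding transcript. On that scale, as the mean of the 6 libraries in log2 CPM per kb, *Capg* was at 9.81, *Izumo1r* at 6.52, *Nrp1* at 5.73, *Lrrc32* at 5.02 and *Itgae* at 4.79. *Ikzf4* followed at 4.36, *Ikzf2* at 3.96, *Foxp3* at 1.99 and *Gpr83* at 0.32. The lineage factor itself thus stood second from the bottom of the 9, below *Ikzf2* by 1.97 ± 0.36 (SD over 6 libraries). These are levels in bulk RNA that also held melanoma, myeloid and fibroblast markers. The part of such RNA in each level was not tested, and *Foxp3* shares 18.6% of its exonic bases with *Flicr*. Neighbours in the order were separated in all 6 libraries except for *Lrrc32* over *Itgae*, which held in 5 of 6 by 0.22 ± 0.34 (SD), and *Foxp3* over *Gpr83*, which held in 5 of 6 by 1.68 ± 1.02 (SD). *Nrp1* stood above *Lrrc32* by 0.71 ± 0.20 (SD), but with the length of all exons together the difference was -0.70, so that this pair has no fixed order. With that length *Nrp1*, at 4.28, was also below *Itgae*, at 4.54, so its place over *Itgae* was not fixed either.

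The variation between libraries was wide for these genes. All 9 had a pooled SD within groups above the median of genes of like level. For *Izumo1r* it was 0.343 against 0.138, for *Foxp3* 0.503 against 0.260, for *Gpr83* 1.04 against 0.441 and for *Capg* 0.170 against 0.141. Control replicate 1 held the lowest value for 6 of the 9 genes, and *Nr3c1*-Foxp3Cre replicate 1 the highest for 5. Control replicate 1 also had the lowest mean of the T cell markers, 9.10 log2 CPM, and the highest mean of the melanoma markers, 9.01. *Nr3c1*-Foxp3Cre replicate 1 was in the middle of both, at 9.31 and 8.51. The mean of the fibroblast markers was 4.45 to 5.43 in control and 3.14 to 3.82 in *Nr3c1*-Foxp3Cre libraries. When the mean of the melanoma markers entered the fit, the log2 fold change of *Foxp3* was 0.04, that of *Ikzf4* 0.42 and that of *Itgae* 0.35, with limma adjusted p of 1.0, 0.553 and 0.698. With each library centered on the T cell markers, *Ikzf4* was higher in *Nr3c1*-Foxp3Cre Tregs without overlap, alone among the 9, against 4.1% of all genes. Its values relative to the T cell mean were then -2.83, -2.48 and -3.10 in control and -2.28, -2.41 and -2.40 in *Nr3c1*-Foxp3Cre libraries. The part of the fibroblast RNA in these values was not tested.

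**Figure D3:**
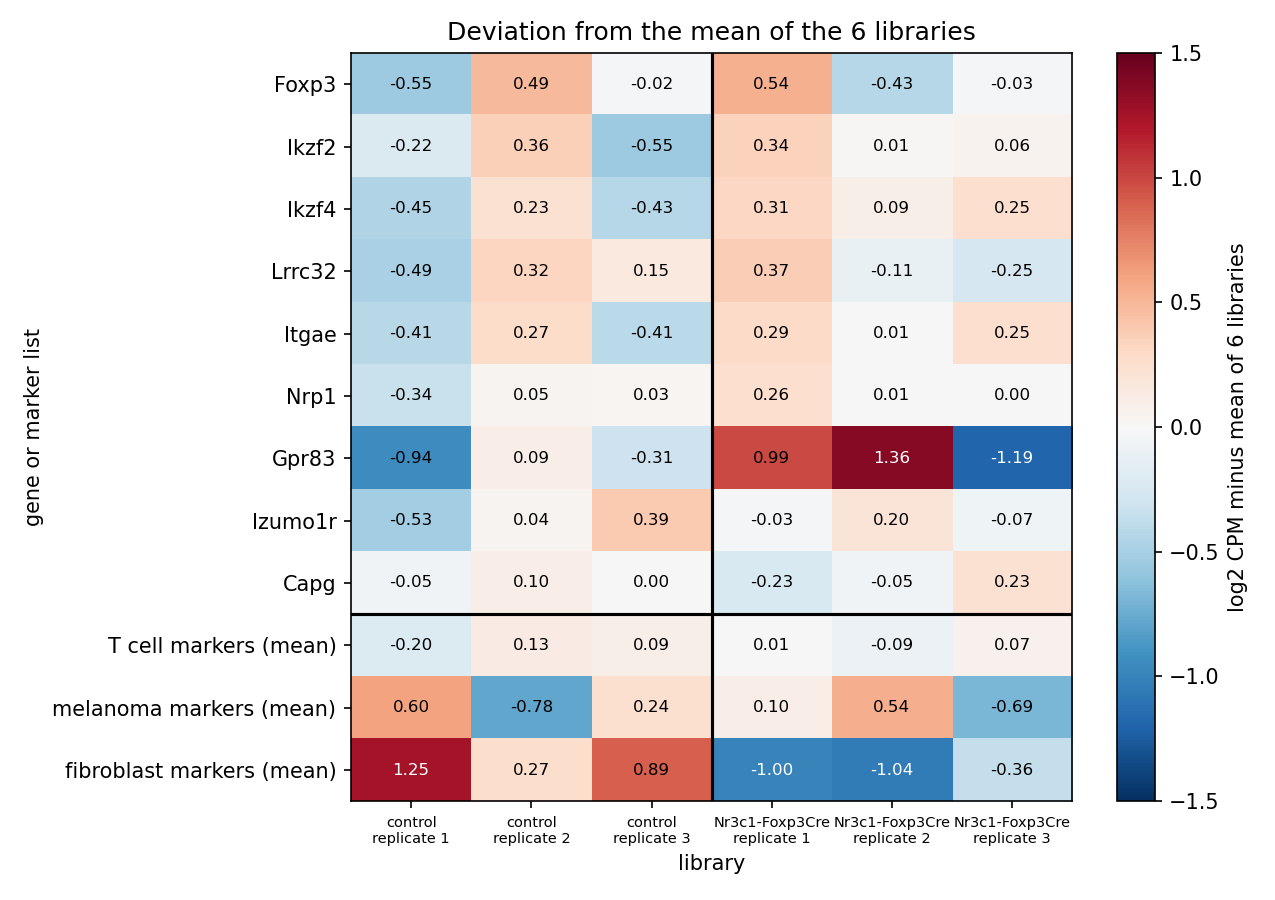
Deviation of each gene, and of the mean of 3 marker lists, from its own mean over the 6 libraries (color and number, log2 CPM), with libraries in columns and a black line between groups. Control replicate 1 is low for most of the 9 genes and high for melanoma and fibroblast markers, and *Itgae* and *Ikzf4* show almost the same row.

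Removing single libraries showed which ones kept the groups overlapping. Without control replicate 2, *Itgae*, *Ikzf4* and *Ikzf2* were higher in *Nr3c1*-Foxp3Cre Tregs without overlap, against 10.6% of all genes. Without *Nr3c1*-Foxp3Cre replicate 2, *Ikzf4* did so, against 8.04% of all genes, and without *Nr3c1*-Foxp3Cre replicate 3, *Gpr83* did, against 7.92%. Removing control replicate 1, control replicate 3 or *Nr3c1*-Foxp3Cre replicate 1 left overlap for all 9 genes, where 15.8%, 13.2% and 16.3% of all genes had none.

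The pattern of *Foxp3* over the 6 libraries was compared with that of 9290 genes with a mean of at least 3 log2 CPM, by the root mean square (RMS) difference of values centered on each gene's mean. The closest were *Atg2a*, an autophagy gene, at 0.064, *Sap130* and *Wdr81* at 0.079, *Tnrc18* at 0.085 and *Dennd4a* at 0.086. Among the 9 genes the closest to *Foxp3* was *Lrrc32*, at 0.200 and rank 174, followed by *Nrp1*, at 0.293 and rank 924. *Itgae*, *Ikzf4* and *Ikzf2* ranked 1056, 1474 and 1533, and *Izumo1r* and *Capg* ranked 4312 and 4948. *Itgae* and *Ikzf4*, on different chromosomes, were each other's closest among the 9290, at an RMS of 0.042, a pair singled out after the values were seen. *Ikzf2* ranked 41 from *Itgae* and 42 from *Ikzf4*. The 6 libraries share these ranks, and with so few points many genes run alike.

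The genes around the Treg identity program were counted by list. As background, 49.5% of all genes were higher, 3.26% passed at an unadjusted limma p under 0.05 and 7.41% were without overlap. Of the 20 transcription factors that act on or with Foxp3, 12 were higher and 8 lower, the median log2 fold change was 0.04, and 0 passed at an adjusted p under 0.05 (1 at an unadjusted limma p under 0.05). *Bach2*, a repressor that favors Treg maintenance, was at 1.45, 1.52 and 1.42 log2 CPM in control and at 2.31, 1.91 and 2.45 in *Nr3c1*-Foxp3Cre libraries, without overlap (log2 fold change 0.76, SE 0.30, limma adjusted p = 1.0). *Runx1*, *Cbfb*, *Stat5b*, *Nfatc2* and *Foxo1*, which act at the *Foxp3* locus, had log2 fold changes of -0.11, -0.19, 0.08, 0.24 and 0.17, each with overlap. Of the 14 chromatin and protein-stability regulators of Foxp3 with a row, of 16 listed, 7 were higher and 7 lower, the median was -0.0075, the groups overlapped for all 14, and 0 passed at an adjusted or an unadjusted limma p under 0.05. *Tet2* and *Dnmt1*, which remove and keep DNA methylation, had log2 fold changes of -0.07 (SE 0.28) and 0.10 (SE 0.11). Of the 18 partners and relatives of the surface and actin genes with a row, of 28 listed, 10 were higher and 8 lower, with a median of 0.05, and 0 passed at an adjusted p under 0.05 (1 at an unadjusted limma p under 0.05).

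In the wider Treg signature more genes were lower than higher. Of its 24 genes, 8 were higher and 16 lower in *Nr3c1*-Foxp3Cre Tregs, with a median of -0.07, and 0 passed at an adjusted p under 0.05 (2 at an unadjusted limma p under 0.05). For comparison, 49.5% of all genes were higher, 3.26% passed at that unadjusted p and 7.41% were without overlap. *Il2ra*, which encodes the CD25 of the sort, was at 8.20, 8.60 and 8.40 log2 CPM in control and at 8.75, 8.23 and 8.71 in *Nr3c1*-Foxp3Cre libraries, a log2 fold change of 0.16 (SE 0.16, limma adjusted p = 1.0). With 1 library left out it ranged from 0.06, without control replicate 1, to 0.33, without *Nr3c1*-Foxp3Cre replicate 2 (limma adjusted p = 1.0, unadjusted p = 0.0384). *Ccr8*, a chemokine receptor of tumor Tregs, was at 8.79, 9.29 and 8.96 in control and at 8.58, 8.29 and 8.58 in *Nr3c1*-Foxp3Cre libraries, lower without overlap (log2 fold change -0.53, SE 0.14, limma adjusted p = 1.0). *Nt5e*, which encodes the ectonucleotidase CD73, was at 5.72, 6.36 and 6.60 and at 6.81, 6.85 and 6.68, higher without overlap (log2 fold change 0.56, SE 0.20, limma adjusted p = 1.0). *Ctla4* had a log2 fold change of -0.40 (SE 0.21) and *Tnfrsf18*, which encodes GITR, of -0.0011 (SE 0.12).

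Genes that Tregs keep low relative to conventional T cells were split in direction. Of the 10 with a row, of 14 listed, 6 were higher and 4 lower, the median was 0.11, and 0 passed at an adjusted p under 0.05 (3 at an unadjusted limma p under 0.05). Among all genes 49.5% were higher, 3.26% passed at that unadjusted p and 7.41% were without overlap. *Ccr7*, a chemokine receptor of lymph node homing, was at 7.05, 7.50 and 7.07 log2 CPM in control and at 6.95, 6.63 and 6.20 in *Nr3c1*-Foxp3Cre libraries, lower without overlap (log2 fold change -0.61, SE 0.19). *Il7r*, the IL-7 receptor chain, was also lower without overlap (-0.90, SE 0.28), at 6.78, 7.56 and 6.67 and at 6.59, 5.57 and 6.15. Both had a limma adjusted p of 1.0. *Ifng* had a log2 fold change of 0.20 (SE 0.18), and the groups overlapped. Of the 10 T cell markers 3 were higher and 7 lower, with a median of -0.04.

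**Figure D4:**
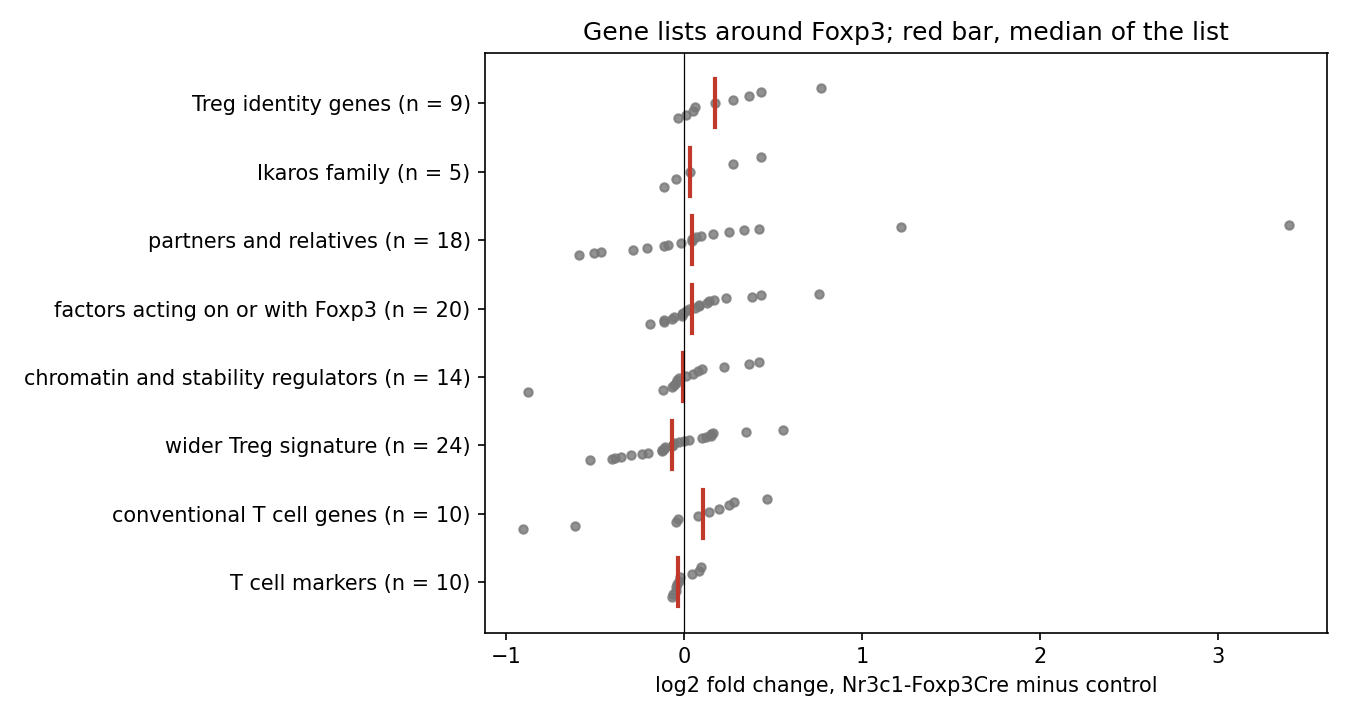
Log2 fold change, *Nr3c1*-Foxp3Cre minus control (x axis), of each gene (grey points) in 8 lists (y axis, with the number of genes that have a row); red bars are list medians. The medians lie between -0.07 and 0.18, and the point farthest to the right among partners and relatives, at 3.40, is *Avil*, whose mean lay below 1 log2 CPM.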

How the data were processed

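RNA-Seq of 6 libraries of sorted tumor Tregs was analysed, 3 control and 3 *Nr3c1*-Foxp3Cre, grouped by the genotype in the labels. Adapter trimming by Cutadapt, STAR alignment to mm10, RSEM counting on GENCODE annotation, removal of genes of low CPM and quantile normalization were done by the authors. The deposited values are log2 CPM after that normalization. Read depth is unknown, so no counting interval is given, and voom weights could not be remade.

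A linear model was fitted to all 12153 genes in R 4.3.3 with limma 3.58.1 (lmFit, eBayes with a trend, genotype as the only term, Benjamini-Hochberg adjustment at 0.05), and the fit was tested on simulated data. Single genes were also compared by an exact two-sided permutation test. Gene positions and lengths came from GENCODE on mm10, which matched 12130 genes, or 99.81%, by identifier. Promoter windows came from RefSeq on GRCm38.p6.

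The 9 genes and all lists were chosen with earlier results of these data known. From each list, genes were named that passed the test or, up to 3 in each direction, had the largest log2 fold change among genes without overlap and with a mean of at least 1. Beyond that rule, members of lists were named for their role, some of them after their values were seen. Alternatives were other eBayes settings and weights, filters, floors, normalizations and centerings, a melanoma covariate, a replicate block, and the removal of each library. Protein sequences were not used here. A gene that the naming rule selects is not reported here.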

Additional observations from a re-analysis of the deposited data

How the results depend on the processing

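None of the 9 genes passed at an adjusted p under 0.05 under any of the alternatives run; the lowest limma adjusted p was 0.163 for *Ikzf4*, with sample quality weights, which gave control replicate 3 a weight of 7.47 against 0.520 to 0.860 for the rest. *Ikzf4*, *Itgae*, *Ikzf2*, *Nrp1* and *Gpr83* kept their sign throughout. Those weights turned *Izumo1r* to a log2 fold change of -0.29 and *Lrrc32* to -0.11. With 1 library left out, the log2 fold change ranged from -0.21 to 0.31 for *Foxp3*, -0.16 to 0.069 for *Capg*, -0.19 to 0.27 for *Izumo1r* and -0.23 to 0.17 for *Lrrc32*. The number of the 9 genes higher then ranged from 5 to 9, at an unadjusted limma p under 0.05 from 0 to 3, and without overlap from 0 to 3. At an unadjusted p under 0.05 it was 1 in the fit reported, 0 without a trend, 3 with sample quality weights, 2 with the melanoma covariate and 0 with the replicate block. In the fit reported 3.26% of all genes passed at that threshold. Shares of all genes at an unadjusted p are not given for the alternatives, so these counts lack a background. Over all genes, 1 was higher and 6 lower at an adjusted p under 0.05. The numbers higher and lower were 0 and 0 without a trend, 7 and 12 with sample quality weights, 4 and 14 with the melanoma covariate, 0 and 0 with the replicate block, and 196 and 200 at an unadjusted p under 0.05; vooma gave 2 higher. With 1 library left out they ranged from 0 to 3 higher and 0 to 5 lower. Of the fibroblast markers 0 passed, against 2 with sample quality weights, 2 with the melanoma covariate and 0 to 2 with 1 library left out, the 2 without control replicate 2. *Nr3c1* passed with the melanoma covariate (log2 fold change -1.39, limma adjusted p = 0.00481). The causes were not tested. Same-numbered libraries deviated with correlations of -0.117, -0.329 and -0.0246, and no control library correlated best with its own number, so the numbers were not read as pairs. The 3 libraries a group limit the precision.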

Other observations

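Of the 13 myeloid and dendritic cell markers with a row, 11 were lower in *Nr3c1*-Foxp3Cre libraries, with a median log2 fold change of -0.35, and *Tyrobp* was lower without overlap (-0.35, SE 0.22, limma adjusted p = 1.0). As background for this and the next lists, 49.5% of all genes were higher and 7.41% were without overlap. All 5 fibroblast markers were lower, *Col1a1* (-1.87, SE 0.29, limma adjusted p = 0.120) and *Col1a2* (-1.69, SE 0.31, limma adjusted p = 0.271) without overlap. Of the 9 genes of dissociation stress, 6 were higher and 3 lower. *Dusp1*, which is also a GR target, was lower without overlap (-0.56, SE 0.13, limma adjusted p = 0.652), and *Ier2* was higher without overlap (0.22, SE 0.09, limma adjusted p = 1.0). Of the endothelial markers, 2 of 5 had a row, and *Pecam1* was higher without overlap (0.28, SE 0.12, limma adjusted p = 1.0). The melanoma markers had a median log2 fold change of -0.04.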
